A study of Mus musculus with 6 samples.

Results

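The immediate-early genes examined here were Fos, Fosb, Jun, Junb, Atf3, Egr1, Klf4, Dusp1, Ier2 and Ier3, and every probe that the array design names for them was read. They were 10 of 21059 genes tested and had 12 of the 41174 probes, with 1 probe each except for Junb and Ier2, which had 2. All 12 probes were well above background on all 6 arrays and none was saturated. The tissue was abdominal fat (white adipose tissue, WAT) from C57/BL6 females at an age of 30 wk. The transgenic mice carried human NAG-1 (hNAG-1), a secreted member of the TGF-beta superfamily also called GDF15, and came from a single transgenic line in which the transgene is expressed in most tissues and highly in WAT. They were compared with wild-type (WT) mice without the transgene. The transgene is human, so no mouse probe checks it. There were 6 mice per genotype, and RNA of 2 mice was pooled for each array, so each genotype had 3 single-colour arrays and a p-value reflects how far pools differ. One slide, read in a single scan, held all 3 WT arrays together with the hNAG-1 array of replicate 1. The other hNAG-1 arrays, replicates 2 and 3, were on another slide. The 75th percentile of the processed signal (spot brightness after the background subtraction of the scanner software) was 913 to 970 for WT and 629 to 858 for hNAG-1 arrays.

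Immediate-early genes are transcribed soon after a cell is stimulated, from factors that are already present, and need no new protein synthesis. Signals through the MAP kinases reach serum response factor and its partners at CArG boxes, and signals through cAMP or calcium reach CREB at the cAMP response element (CRE). Most of the products are transcription factors (FOS and JUN proteins and ATF3, which pair as AP-1 or related dimers, and the zinc finger factors EGR1 and KLF4), while DUSP1 is a phosphatase that switches the MAP kinases off again. In WAT they can be transcribed in adipocytes and in the stromal, vascular and immune cells. Fewer cells of a type and less RNA per cell cannot be told apart in this bulk tissue.

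The sequence before the start of transcription is shown for the 4 members whose hNAG-1 arrays all lay below the WT arrays, and for Fos. It was available for 8 of the 10 members, from RefSeq (mouse build GRCm38.p6), as the 250 bases upstream of the start; Egr1 and Ier2 are named only. The windows lie at chr17:26508473-26508722 (Dusp1, minus strand), chr4:55532476-55532725 (Klf4, minus strand), chr8:84978749-84978998 (Junb, minus strand), chr12:85473640-85473889 (Fos, plus strand) and chr4:95052223-95052472 (Jun, minus strand). Each is written 5′ to 3′ on the strand of the gene and ends at the base before the start. Capitals mark a CRE (TGACGTCA), its core (TGACG, read on either strand, so CGTCA marks the other strand) or a TATA box (TATAAA).
Dusp1: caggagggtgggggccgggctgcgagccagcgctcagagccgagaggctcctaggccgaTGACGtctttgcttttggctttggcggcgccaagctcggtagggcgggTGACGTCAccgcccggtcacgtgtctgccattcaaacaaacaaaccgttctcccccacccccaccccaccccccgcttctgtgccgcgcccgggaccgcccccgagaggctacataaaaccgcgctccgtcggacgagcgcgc
Klf4: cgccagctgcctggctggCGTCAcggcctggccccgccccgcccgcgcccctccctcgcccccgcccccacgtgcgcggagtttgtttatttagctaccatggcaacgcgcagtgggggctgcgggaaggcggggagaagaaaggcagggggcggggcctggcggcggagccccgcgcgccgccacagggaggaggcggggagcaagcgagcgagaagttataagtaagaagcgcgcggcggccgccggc
Junb: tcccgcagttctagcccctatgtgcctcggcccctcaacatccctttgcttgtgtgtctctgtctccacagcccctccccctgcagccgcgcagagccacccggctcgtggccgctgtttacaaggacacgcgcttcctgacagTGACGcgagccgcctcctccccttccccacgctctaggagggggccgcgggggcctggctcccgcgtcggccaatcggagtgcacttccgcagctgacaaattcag
Fos: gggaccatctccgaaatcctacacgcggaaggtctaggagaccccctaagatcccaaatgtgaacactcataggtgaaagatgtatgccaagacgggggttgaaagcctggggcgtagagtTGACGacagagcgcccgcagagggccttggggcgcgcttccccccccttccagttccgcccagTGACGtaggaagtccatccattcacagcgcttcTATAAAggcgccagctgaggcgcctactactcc
Jun: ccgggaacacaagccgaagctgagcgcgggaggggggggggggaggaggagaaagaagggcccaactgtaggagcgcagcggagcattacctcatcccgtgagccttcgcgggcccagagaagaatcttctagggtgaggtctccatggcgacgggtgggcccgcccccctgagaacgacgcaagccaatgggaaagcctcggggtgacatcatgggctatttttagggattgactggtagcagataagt

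The full CRE was found in the Dusp1 window alone of the 8, with its first base 143 bases upstream of the start, against 1.55% of the 32851 mouse promoter windows of this length. The core lies in 6 of the 8 windows (Fos, Fosb, Junb, Atf3, Klf4 and Dusp1) and in 17.8% of all windows. Since the CRE is a palindrome, 2 of the 3 cores in the Dusp1 window overlap inside it, and the other begins 191 bases upstream. In Fos the cores begin 129 and 66 bases upstream and the TATA box 33 bases upstream, a box that 12.4% of all windows hold. No member window has the AP-1 site (TGANTCA, in 6.75% of all windows), the CArG box (1.47%) or the EGR site (GCGTGGGCG, 0.536%), each searched on both strands. Neither the Jun nor the Ier3 window holds any of the motifs searched. A match is only a match of letters, and its absence concerns this window alone.

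As a group, the members did not move one way. The value given for a gene is its brightest probe, as the log2 signal relative to the 75th percentile of its array, and a log2 fold change is hNAG-1 minus WT. By limma with Benjamini-Hochberg adjustment over all genes, no member passed an adjusted p of 0.05, and 0% of all genes did. At an unadjusted p under 0.05, 4 members were lower in hNAG-1 mice (Jun, Junb, Klf4 and Dusp1) against 4.08% of all genes, and 1 was higher (Egr1) against 8.45%. The same 4 members had every hNAG-1 array below every WT array, which held for 6.57% of all genes, and Egr1 had every hNAG-1 array above, which held for 13.7%. The log2 fold change was below 0 in 6 members, against 41% of all genes, and above 0 in 4. Without scaling between arrays it was below 0 in all 10, but the hNAG-1 arrays were then dimmer as a whole. In that setting 3967 of all genes were lower and 221 higher at an unadjusted p under 0.05. The count of 10 is therefore not read as a result about the members. The median log2 fold change was -0.30 over the members and 0.06 over all genes, and without scaling -0.67 and -0.31. With the background corrected by normexp these medians were -0.29 and -0.19, so the members lay nearer to all genes there. The median of the members was -0.20 without WT replicate 1 and -0.16 without hNAG-1 replicate 2.

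Jun and Junb encode partners of FOS proteins in the AP-1 dimer. The Jun probe, at chr4:94441779-94441838 of build mm7, is printed 10 times on each array. Its processed signal before scaling was 2062, 1518 and 1533 in WT and 899, 648 and 866 in hNAG-1 pools. Before scaling the highest hNAG-1 pool thus lay under the lowest WT pool, and WT replicate 1 stood above the other WT pools. The scaled log2 signal was 0.85 ± 0.21 in WT and 0.13 ± 0.30 in hNAG-1 mice (SD, n = 3 arrays each). After scaling 0.25 separated the genotypes, less than the range of 0.60 among the hNAG-1 pools. For Jun the log2 fold change was -0.71 (SE 0.20, limma unadjusted p = 0.0127, adjusted p = 0.283), a 1.64-fold lower signal. Over 9 to 10 usable spots of Jun the coefficient of variation was 2.05% to 6.82%. This spread covers the spots of 1 hybridization and not labelling or hybridization.

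**Figure D1:**
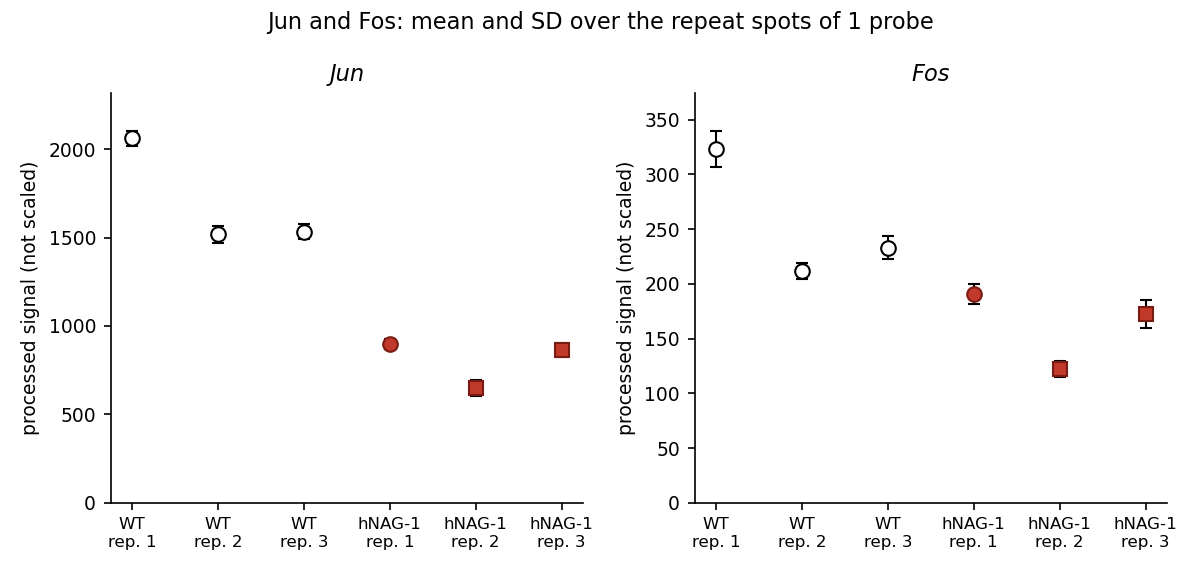
Processed signal of the Jun and Fos probes before scaling (vertical axis, linear, from 0) on each array (horizontal axis); points are the mean and bars the SD over the repeat spots of the probe, open circles are WT arrays and red symbols hNAG-1 arrays (squares, the slide without a WT array). Some pools of a genotype differ by no more than the SD over spots (Jun on WT replicates 2 and 3), and the 3 hNAG-1 arrays lie below the 3 WT arrays for both genes before scaling, by a wider gap for Jun than for Fos.

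Junb had 2 probes on chromosome 8 that overlap in position (83563097 to 83563156 for the brighter and 83563059 to 83563118 for the dimmer, build mm7). The brighter gave 8315, 7178 and 6771 in WT and 5094, 4712 and 4053 in hNAG-1 mice. After scaling these were 2.98 ± 0.12 and 2.66 ± 0.08 (SD, n = 3 arrays each), with 0.13 between the lowest WT and the highest hNAG-1 array. The difference was smaller than for Jun, with a log2 fold change of -0.32 (SE 0.12, limma unadjusted p = 0.0380, adjusted p = 0.374). The dimmer probe gave 7729, 6422 and 6208 in WT and 3790, 3667 and 3714 in hNAG-1 mice and a log2 fold change of -0.49 (SE 0.15, limma unadjusted p = 0.0185, adjusted p = 0.319). Both Junb probes therefore had the same sign and no overlap between genotypes.

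Fos and Fosb encode the FOS partners of JUN proteins. Fos, whose probe on chromosome 12 is also printed 10 times, gave 323, 212 and 233 in WT and 191, 122 and 173 in hNAG-1 mice. These raw values did not overlap, but after scaling they did, because hNAG-1 replicate 3 (-1.87) came to lie above WT replicates 2 (-2.11) and 3 (-2.01). The log2 fold change of Fos was -0.29 (SE 0.23, limma unadjusted p = 0.252, adjusted p = 0.626), and it ranged from -0.46 without hNAG-1 replicate 3 to -0.12 without hNAG-1 replicate 2. Its repeat spots varied by 3.49% to 7.25% (8 to 10 usable spots). Fosb was the dimmest of the 10 genes, with 84.4, 55.4 and 41.8 in WT and 71.9, 56.3 and 46.9 in hNAG-1 mice. The WT values of Fosb enclosed all the hNAG-1 values, and the log2 fold change of 0.35 (SE 0.25, limma unadjusted p = 0.212, adjusted p = 0.598) turned to -0.32 when the background was corrected by normexp. Leaving out WT replicate 1 gave 0.60 for Fosb (limma unadjusted p = 0.0238) and leaving out WT replicate 3 gave 0.12.

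Atf3 encodes a stress-induced factor that pairs with JUN proteins or with itself. Its signal was 805, 853 and 629 in WT and 652, 390 and 401 in hNAG-1 mice. The genotypes overlapped, since hNAG-1 replicate 1 was above WT replicate 3. Atf3 had a log2 fold change of -0.33 (SE 0.19, limma unadjusted p = 0.134, adjusted p = 0.522), and within the slide that held both genotypes it was -0.08 (SE 0.27).

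Klf4 had the largest difference of the members. It encodes a zinc finger factor known from pluripotent cells, epithelia, smooth muscle and endothelium, and from the early steps of adipocyte differentiation. The probe (chr4:55541780-55541839, mm7) was the brightest of the set and gave 22637, 15503 and 14604 in WT and 9024, 7008 and 6565 in hNAG-1 mice. The scaled log2 signal was 4.20 ± 0.31 in WT and 3.36 ± 0.05 in hNAG-1 mice (SD, n = 3 arrays each). The 3 hNAG-1 pools lay within 0.10 of each other, the WT pools within 0.58, and 0.57 separated the genotypes. For Klf4 this gave a log2 fold change of -0.84 (SE 0.18, limma unadjusted p = 0.00342, adjusted p = 0.218), a 1.79-fold lower signal.

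Egr1 encodes the other zinc finger factor and is a direct target of serum response factor. Fosb, Ier2 and Ier3 also had a log2 fold change above 0. By brightest probe, Egr1 was the only member higher without overlap after scaling, as were 13.7% of all genes. Its signal was 1402, 1335 and 1468 in WT and 1575, 1239 and 1139 in hNAG-1 mice, so the raw values overlapped and the lowest were on hNAG-1 arrays. Relative to the 75th percentile, which was itself lower on the hNAG-1 arrays, Egr1 was 0.58 ± 0.06 in WT and 0.84 ± 0.04 in hNAG-1 mice (SD, n = 3 arrays each). The log2 fold change was 0.27 (SE 0.10, limma unadjusted p = 0.0403, adjusted p = 0.380), and without scaling it was -0.10 (SE 0.19). The direction given for Egr1 is thus relative to the rest of the array.

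Dusp1 encodes the phosphatase that inactivates MAP kinases, and of the 8 members with a promoter window it alone had the full CRE. It gave 4293, 3227 and 2957 in WT and 1715, 1457 and 1491 in hNAG-1 mice (probe at chr17:24690398-24690455, mm7). Every hNAG-1 pool was lower than every WT pool, and WT replicate 1 was again the highest. After scaling the means were 1.88 ± 0.25 and 1.09 ± 0.13 (SD, n = 3 arrays each). The log2 fold change of Dusp1 was -0.78 (SE 0.16, limma unadjusted p = 0.00343, adjusted p = 0.218), a 1.72-fold lower signal.

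Ier2 and Ier3 are named for their immediate-early response; IER3 acts in cell survival and IER2 is a nuclear protein. The brighter Ier2 probe gave 1226, 1213 and 1176 in WT and 1019, 1016 and 854 in hNAG-1 mice, and after scaling the genotypes overlapped with a log2 fold change of 0.04 (SE 0.12, limma unadjusted p = 0.739, adjusted p = 0.903). The other Ier2 probe was far dimmer, at 51.3, 49.5 and 45.8 in WT and 54.0, 55.6 and 46.8 in hNAG-1 mice. For that probe the scaled values did not overlap and the log2 fold change was 0.46 (SE 0.13, limma unadjusted p = 0.0120, adjusted p = 0.288), so the 2 probes of Ier2 did not give the same difference. Ier3 gave 490, 464 and 316 in WT and 509, 288 and 276 in hNAG-1 mice. The highest Ier3 value was on hNAG-1 replicate 1 and, relative to its array, the lowest was on WT replicate 3, with a log2 fold change of 0.09 (SE 0.23, limma unadjusted p = 0.705, adjusted p = 0.887).

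**Figure D2:**
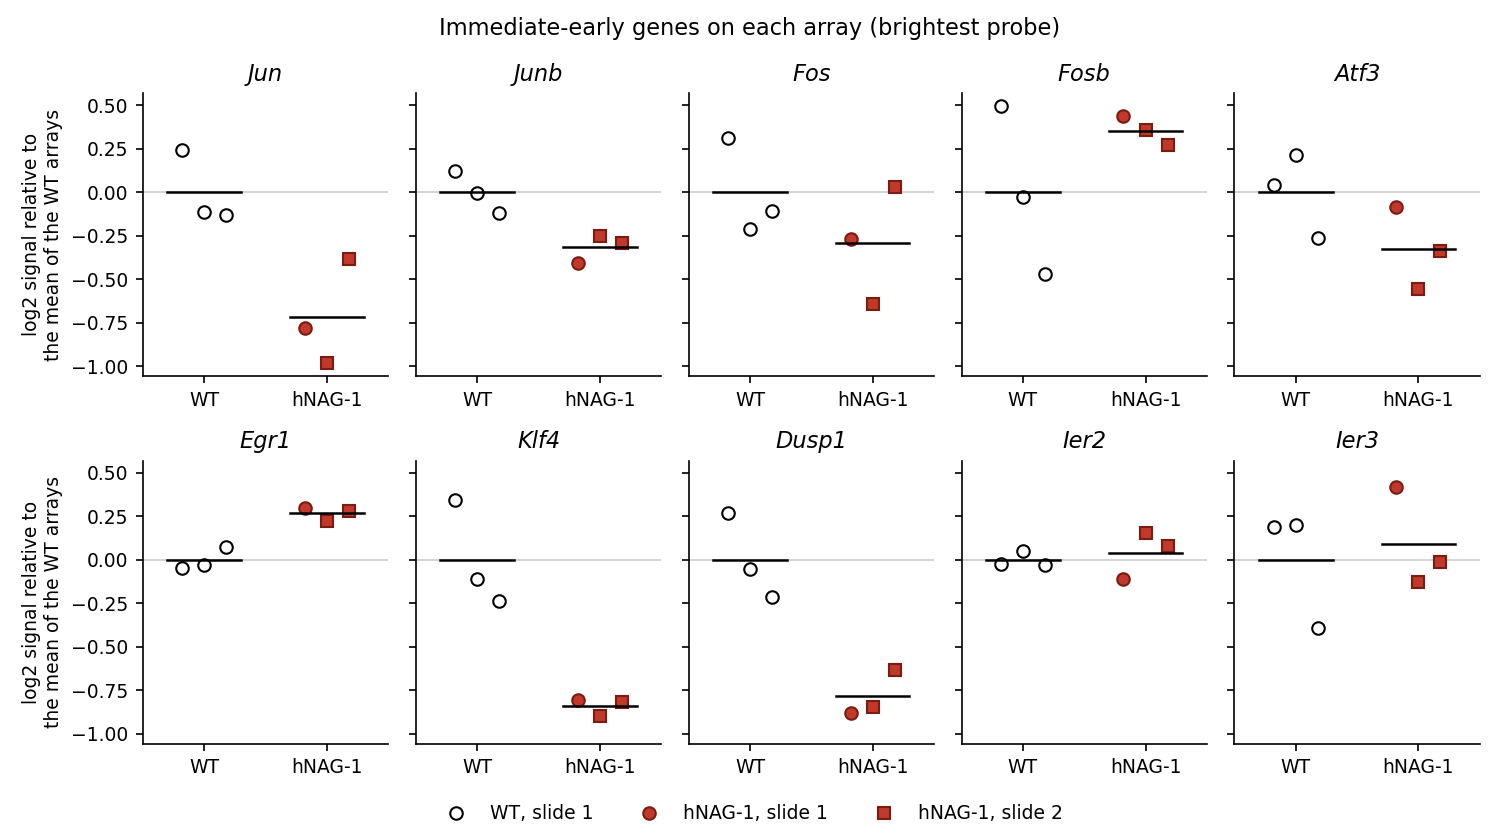
Log2 signal of each immediate-early gene relative to the mean of its WT arrays (vertical axis, the same in all panels) by genotype (horizontal axis); each point is 1 array, lines are group means, and circles and squares mark the slide. The hNAG-1 arrays lie below the WT arrays without overlap in Jun, Junb, Klf4 and Dusp1 and above them in Egr1, while the other 5 genes overlap.

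The WT pools were not alike in these genes. WT replicate 1 was the highest of the WT arrays in 6 members, against 34% of all genes, and the highest of all 6 arrays in the same number, against 14.8% (Fos, Fosb, Jun, Junb, Klf4 and Dusp1). The median of the members relative to the WT mean was 0.22, -0.03 and -0.17 on WT replicates 1, 2 and 3 and -0.19, -0.40 and -0.15 on hNAG-1 replicates 1, 2 and 3. WT replicate 3 thus lay among the hNAG-1 arrays in this median. The median SD between the WT arrays was 0.24 over the members and 0.21 over all genes, and that between the hNAG-1 arrays was 0.14 and 0.19. Without WT replicate 1 the log2 fold changes were -0.67 (SE 0.13) for Klf4, -0.65 (SE 0.15) for Dusp1, -0.59 (SE 0.22) for Jun and -0.25 (SE 0.13) for Junb, and the unadjusted p of Junb rose to 0.117. Where genotypes do not overlap, leaving out an array cannot turn the sign. Over the 21 alternatives Klf4 ranged from -1.21 to -0.61, Dusp1 from -1.15 to -0.57, Jun from -1.08 to -0.58 and Junb from -0.68 to -0.07. The lower ends all came from no scaling between arrays, where the median of all genes was -0.31. With that setting left aside they were -0.96 for Klf4, -0.89 for Dusp1, -0.88 for Jun and -0.41 for Junb. The lowest adjusted p among the 21 alternatives was 0.0651, for Klf4 under trended and robust variances.

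Slide and genotype were partly confounded, so the members were also compared on the slide that held both genotypes, with hNAG-1 replicate 1 as the only transgenic array and assumed to vary like the WT arrays. There Klf4 was -0.80 (SE 0.31), Dusp1 -0.88 (SE 0.27), Jun -0.78 (SE 0.25), Junb -0.41 (SE 0.21) and Egr1 0.30 (SE 0.19). For these genes the sizes were close to those over all arrays or larger, but the arrays of this slide are part of that fit. Of the other members, Fos was -0.27, Fosb 0.44, Atf3 -0.08, Ier2 -0.11 and Ier3 0.42. The median over the members was -0.19 on this slide and -0.30 over all arrays. At an unadjusted p under 0.05, 2 members were lower there, Jun and Dusp1, against 3.49% of all genes, and 0 were higher, against 2.71%.

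**Figure D3:**
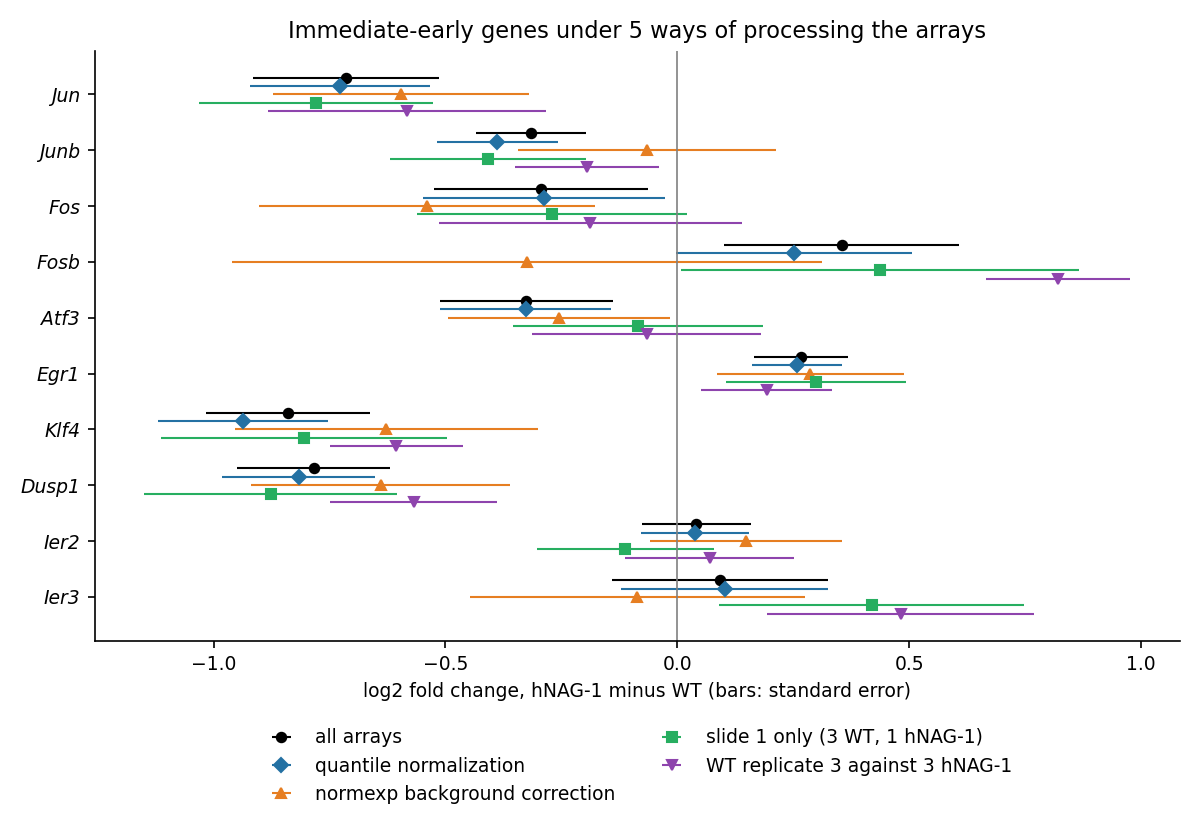
Log2 fold change of each immediate-early gene, hNAG-1 minus WT (horizontal axis), with its standard error (bars), over all arrays and under 4 other ways of processing or choosing the arrays (symbols). Jun, Klf4 and Dusp1 stay between -0.94 and -0.57 in all 5, Junb comes close to 0 under normexp at -0.07, and Fosb, Ier2 and Ier3 lie on both sides of 0. Under normexp the median of all genes was -0.19, and relative to it Jun was -0.40, Klf4 -0.43, Dusp1 -0.45 and Junb 0.13. Over all arrays, relative to the median of all genes, Jun was -0.78, Klf4 -0.90, Dusp1 -0.85 and Junb -0.38.

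Smooth muscle markers differed strongly between the pools. The sum of their scaled signal (Acta2, Myh11, Tagln, Cnn1, Smtn and Actg2, all well above background on every array) was 329, 408 and 61.1 in the WT pools and 71.9, 57.8 and 93.1 in the hNAG-1 pools. WT replicates 1 and 2 were therefore high and WT replicate 3 was at the level of the hNAG-1 arrays. All 6 markers had a log2 fold change below 0 (against 41% of all genes), with a median of -1.62. At an unadjusted p under 0.05, 2 of them were lower, Acta2 (-1.79) and Smtn (-1.10), against 4.08% of all genes. With WT replicate 3 as the only WT array, assumed to vary like the hNAG-1 arrays, the log2 fold changes were -0.61 (SE 0.14) for Klf4, -0.57 (SE 0.18) for Dusp1, -0.58 (SE 0.30) for Jun and -0.19 (SE 0.15) for Junb. WT replicate 3 was the lowest WT array in all 4 and their genotypes do not overlap, so the sign and the smaller size follow from the choice of array.

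**Figure D4:**
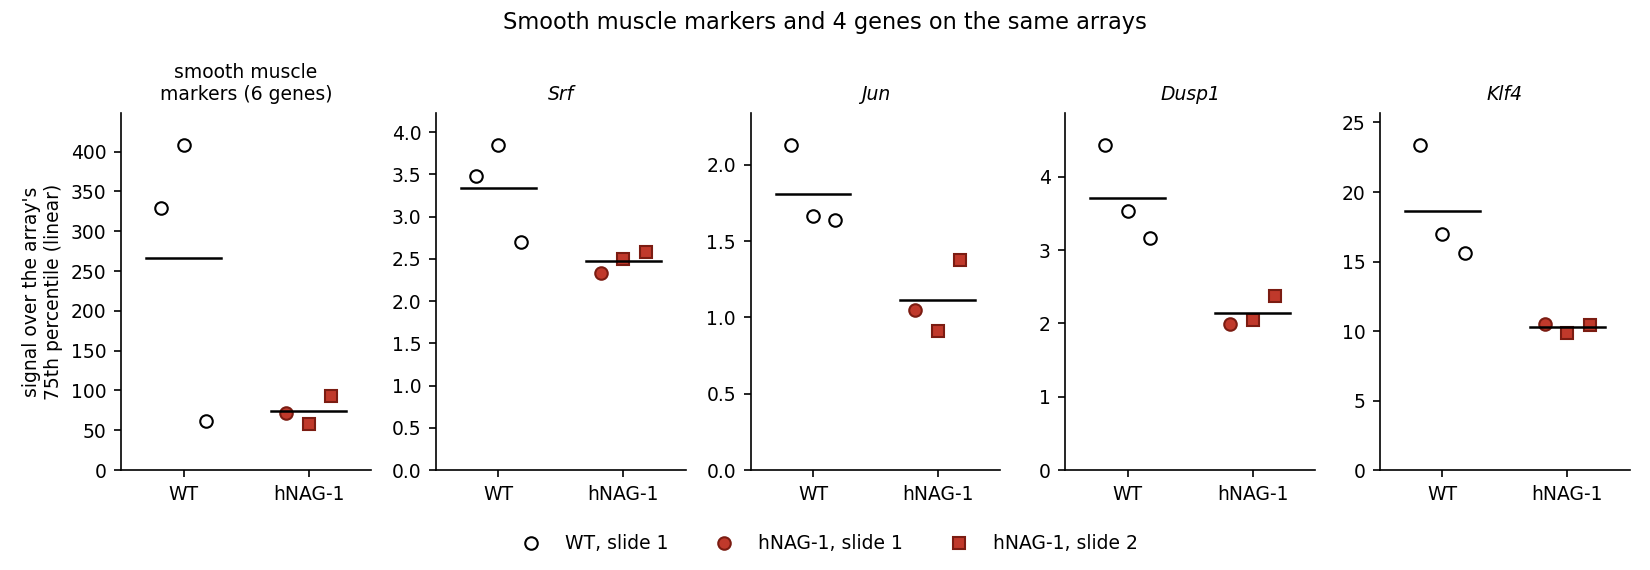
Signal over the 75th percentile of the array (vertical axes, linear, from 0) for the sum of 6 smooth muscle markers and for Srf, Jun, Dusp1 and Klf4, by genotype; each point is 1 array, lines are means, and squares mark the slide without a WT array. The marker sum of WT replicate 3 (61.1) lies among the hNAG-1 arrays (57.8 to 93.1). WT replicate 3 is also the lowest WT array in Srf, Jun (barely), Dusp1 and Klf4. The WT patterns differ, since WT replicate 2 is the highest in the marker sum but lies nearer to replicate 3 than to replicate 1 in Jun, Dusp1 and Klf4.

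Markers of other cell types also varied between the pools, and their part in the members' differences was not tested. The counts below stand beside 41% of all genes with a log2 fold change below 0. At an unadjusted p under 0.05, 8.45% of all genes were higher and 4.08% lower. The defining markers of the labelled tissue were present: all 8 adipocyte markers were well above background on every array. Their summed scaled signal was 1386 to 1709 in WT and 1712 to 2035 in hNAG-1 pools, and 8 of 8 had a log2 fold change above 0 (3 at an unadjusted p under 0.05, led by Retn at 0.64). Macrophage markers were below 0 in 8 of 8 (2 at an unadjusted p under 0.05, median -0.24, sums 115 to 151 and 125 to 130), fibroblast markers in 7 of 8 (4 at an unadjusted p under 0.05, median -0.35, sums 500 to 579 and 440 to 522) and endothelial markers in 6 of 8 (1 at an unadjusted p under 0.05, median -0.17, sums 36.2 to 53.9 and 32.5 to 44.9). Lymphocyte markers were above 0 in 7 of 7 with sums of 1.68 to 2.79 and 2.34 to 4.57, and neutrophil markers in 3 of 5 (1 at an unadjusted p under 0.05, S100a9 at 1.21) with sums of 0.536 to 0.694 and 0.577 to 1.56. Mesothelial markers were below 0 in 4 of 6 with sums of 66.3 to 67.5 and 48.7 to 63.7. Skeletal muscle markers varied within both genotypes (32.8 to 148 and 33.4 to 224), and exocrine pancreas markers stood out in WT replicate 2 alone (13.7, against 1.02 to 1.76 on the other arrays, with Cela2a and Pnlip not measured).

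The wider class was read from a list of 37 further immediate-early genes, of which 35 were measured (Nr4a3 and Dusp5 were not). Of these, 27 had a log2 fold change below 0 and 8 above, with a median of -0.18. Over all genes 41% were below 0 and the median was 0.06. At an unadjusted p under 0.05, 6 were lower (against 4.08% of all genes) and 1, Egr3, was higher (8.45%). Without overlap of the arrays 7 were lower (6.57%) and 1 higher (13.7%). Ccn2, a matricellular protein and target of YAP and TGF-beta signalling, was at 2.29, 2.10 and 1.41 in WT and 1.08, 0.59 and 0.82 in hNAG-1 mice, a log2 fold change of -1.10 (SE 0.27, limma unadjusted p = 0.00680, adjusted p = 0.249). Zfp36, which binds and destabilises AU-rich mRNAs, had a log2 fold change of -0.78 (SE 0.19, limma unadjusted p = 0.00685, adjusted p = 0.249) and, by its dimmer probe, of -1.52. Sgk1, a kinase induced by serum and glucocorticoids, had -1.08 (SE 0.37), and the polo-like kinase gene Plk3 had -0.39 (SE 0.14). In Ccn2, Zfp36 and Sgk1 the lowest WT array was WT replicate 3, as it was in Klf4, Dusp1, Jun and Junb, while in Plk3 it was WT replicate 1.

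The remaining genes of this list past an unadjusted p of 0.05 were looked up after their values were seen. Btg2, an antiproliferative gene, had -0.32 (SE 0.13) and its 2 other probes -0.53 and -0.45. Ccn1, the close relative of Ccn2, had -1.24 (SE 0.49) with overlapping arrays, and the dim Egr3 had 0.61 (SE 0.25). The 2 probes of Klf2, a paralogue of Klf4, went opposite ways (0.42 for the brighter and -0.50 for the other), so no direction is given for Klf2, which the count above takes by its brighter probe.

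**Figure D5:**
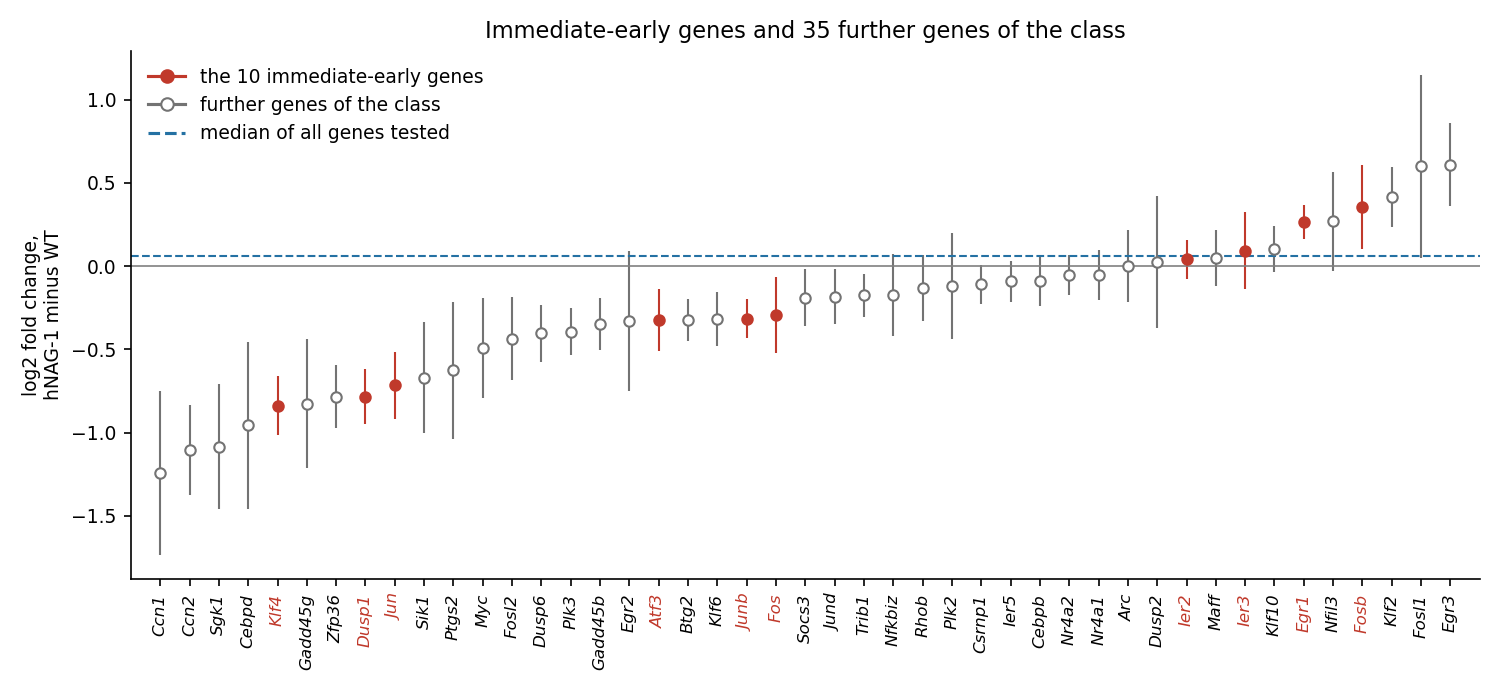
Log2 fold change, hNAG-1 minus WT, with its standard error (vertical axis and bars) for the 10 immediate-early genes (red) and 35 further genes of the class (open), in order of size; the dashed line is the median of all genes tested. Klf4, Dusp1 and Jun lie at the lower end of the class beside Ccn2, Sgk1 and Zfp36, and 6 of the 10 and 27 of the 35 lie below 0.

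The genes that act upstream were split between higher and lower. Of 18 kinases and transcription factors of the MAP kinase, serum response factor and CREB routes, 17 were measured (Elk1 was not). Of these, 6 were below 0 and 11 above, with a median of 0.07. This split is near that of all genes, where 41% were below 0 and the median was 0.06. Srf itself was at 1.80, 1.94 and 1.43 in WT and 1.22, 1.32 and 1.36 in hNAG-1 mice, a log2 fold change of -0.42 (SE 0.16, limma unadjusted p = 0.0406, adjusted p = 0.380). With WT replicate 3 as the only WT array Srf was -0.13 (SE 0.15). Mrtfb, which encodes a coactivator of serum response factor, was higher by 0.60 (SE 0.20, limma unadjusted p = 0.0262, adjusted p = 0.340), though -0.14 under normexp. Its 2 other probes gave 0.13 and 0.22, and the mean of its probes 0.31 (SE 0.33). The kinase genes Mapk14 (p38 alpha) and Map2k2 (MEK2) had 0.29 (SE 0.13) and 0.23 (SE 0.10), neither at an unadjusted p under 0.05, and both turned below 0 without scaling between arrays.

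Heat shock genes, which other kinds of stress induce, were also mixed. Of 10 listed, 9 were measured, 5 below 0 and 4 above, with a median of -0.01. For all genes the share below 0 was 41% and the median 0.06. Hspb1 was lower (-0.70, SE 0.22, limma unadjusted p = 0.0197, adjusted p = 0.317) and the mitochondrial chaperonin gene Hspd1 higher (0.32, SE 0.10, limma unadjusted p = 0.0209, adjusted p = 0.320). Its partner Hspe1 had 0.18 (SE 0.13), and the inducible Hspa1a had -0.46 (SE 0.37) with WT replicate 1 the highest array (2.10) and WT replicate 3 the lowest (0.71).

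The mean profile of the members over the 6 arrays, each gene centred on its own mean, was 0.32, 0.12 and -0.06 on WT replicates 1 to 3 and -0.09, -0.23 and -0.05 on hNAG-1 replicates 1 to 3. Among 9516 other genes with at least the range of this profile (0.55), those most like it by root mean square difference over the 6 arrays were E030011O05Rik (0.0333), Rbm12b1 (0.0359), Clec4d (0.0499), Plaur (0.0502), Pdia4 (0.0513), Dnajb4 (0.0526), Hdc (0.0543) and Tnxb (0.0552). Plaur encodes the urokinase receptor, Clec4d a lectin of myeloid cells, Hdc the enzyme that makes histamine, and Dnajb4 and Pdia4 chaperones. With 6 arrays this likeness is only a description; the highest point of the profile was WT replicate 1 and the lowest hNAG-1 replicate 2.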

How the data were processed

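Per the labels, Cy3-labelled RNA of pooled mice was measured on single-colour arrays. The authors deposited, for each array, spot intensity from Agilent Feature Extraction 9.5 (version from the submitters' processing notes) and a table of the same processed signal, which is a linear intensity, background-subtracted within each array and not normalized between arrays; all 45018 rows of that table equal the scanner values. The methods of the study name an Affymetrix array, and the scanner files are Agilent's.

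From these values, 1639 control spots and 65 to 87 outlier-flagged spots per array were removed, repeat spots were averaged by probe, and the log2 signal was set relative to the log2 of each array's 75th percentile over probes. The share of spots well above background was 71.2% to 82.0%. Probes that reached it on 3 or more of 6 arrays were kept (31456, after 33 were dropped for a missing value), and the brightest represented its gene (21059 genes). Probes were named through RefSeq accessions (22951 of 41174), symbols (6659) or synonyms (3109), and 8455 kept the name in the file; all 12 probes of the members matched by accession. Probe positions are those of the array design (mm7).

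The 2-group fit used limma 3.58.1 (lmFit, eBayes) in R 4.3.3. Its p-values are two-sided and were adjusted over all genes by Benjamini-Hochberg. The fit was tested on simulated data. The members, the gene lists, the cell type markers and the motifs were chosen with earlier results of these data known. The genes named are all members, the 4 of each list on which a result turns with the largest moderated t, the 8 genes most like the members in profile, and Btg2, Ccn1, Egr3 and Klf2, chosen after their values were seen. The alternatives were normexp (offset 50), quantile normalization, 2 filters on dim probes, 2 probe rules, trended and robust variances, the slide (blocked, or the mixed slide alone), a replicate block, leaving out each array, a t-test per gene, 3 other scalings and WT replicate 3 alone. The number of arrays limits the precision.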

Additional observations from a re-analysis of the deposited data

How the results depend on the processing

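Over all 10 immediate-early genes, no alternative brought a member past an adjusted p of 0.05. Fos, Jun, Junb, Atf3, Klf4 and Dusp1 kept their sign in all 21 alternatives (leaving out an array cannot turn the sign where genotypes do not overlap). The median over all genes was itself -0.19 under normexp and -0.31 without scaling. Relative to the median of all genes under normexp, Junb turned to 0.13 and Atf3 was at -0.06. For the values that changed, the cause was not tested. Trended and robust variances took 107 genes higher and 23 lower past the adjusted threshold, none of them a member. A t-test on each gene took 0 higher and 0 lower past it, and 1829 and 794 at the unadjusted threshold. At an unadjusted p under 0.05, where 1780 genes were higher and 860 lower (4 members lower and 1 higher), normexp left 324 and 112 (0 members lower and 0 higher), slide as a fixed block 825 higher and the slide with both genotypes 571 higher (2 members lower and 0 higher in each), and probes in place of genes 1292 lower (2 member probes higher). With no filter on dim probes 0 members were higher. Leaving out each array in turn gave 960 to 2379 genes higher, 529 to 1242 lower and 0 to 1 members higher; WT replicate 1 gave the lowest count of lower genes and hNAG-1 replicate 2 the lowest count of higher genes. Of alternatives chosen after seeing the data, the array median gave 534 lower (0 members higher), no scaling gave 221 higher and 3967 lower (6 members lower, 0 higher, median over the members -0.67), and WT replicate 3 alone gave 1021 higher and 547 lower (2 members lower, median -0.13).

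Signs turned for genes that had not passed the adjusted threshold. Fosb was -0.324 under normexp and -0.0145 without scaling, and Egr1 was -0.10 without scaling. Ier2 was -0.112 on the mixed slide or with slide as a fixed block and -0.328 without scaling, and leaving out each array gave -0.0151 to 0.118. Ier3 was -0.0858 under normexp and -0.276 without scaling, and leaving out each array gave -0.102 to 0.204 (-0.102 without replicate 3 of WT and -0.0707 without replicate 1 of hNAG-1). Mrtfb was -0.14 under normexp. Without scaling Mapk14 was -0.0763, Map2k2 -0.139, Hspd1 -0.0471 and Hspe1 -0.192, and with WT replicate 3 alone Hspa1a was 0.25 and Hdc 0.00386. Low signal limits Fosb (41.8 to 84.4 on the 6 arrays) and the dimmer Ier2 probe (45.8 to 55.6), the dimmest pair of the 12 probes.

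WT and hNAG-1 arrays share replicate numbers, and the labels do not say whether same-numbered arrays were handled together. The deviations of same-numbered arrays correlated at 0.10, 0.51 and 0.09. The best match of hNAG-1 replicate 1 was WT replicate 3, that of replicate 2 was WT replicate 2, and that of replicate 3 was WT replicate 1. Deviations centred within 3 arrays constrain each other, so these values cannot decide whether the arrays are paired. With the replicate block, 3 members were lower and 0 higher at an unadjusted p under 0.05, where 923 of all genes were lower and 1492 higher, and Klf4 was -0.84 (SE 0.17).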
